A study of Mus musculus with 53 samples.

Results

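The arcuate nucleus (ARC) of obese Nnat+/-p males fed chow was compared with that of chow-fed wild type (Nnat+/+) males, using 6 of the 53 libraries in the series. Members were chosen by label and weight: the 4 obese mice weighed over 37 g (replicates 36, 37, 41 and 42 at 38.8, 46.5, 41.66 and 41.17 g) and the 2 wild type mice weighed 33.5 and 31.4 g (replicates 33 and 34). All were C57BL/6 males between 13 and 14 weeks of age. Nnat+/-p mice inherited from their father a null Nnat allele in which a lacZ cassette stands in place of exons, and the wild type mice were littermates. The allele is carried by every cell of the body and was not limited to 1 cell type. Each library came from total RNA of laser-captured tissue, and total counts ran from 3717069 to 3984257 in the wild type and from 4447194 to 6676070 in the obese libraries.

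The ARC lies at the base of the hypothalamus beside the median eminence and reads hormones that report on body fat. Its AgRP/NPY neurons drive feeding, and its POMC neurons, many of which also make CART, restrain it. Astrocytes and tanycytes surround these neurons, and astrocytes that become reactive make more of the filament protein GFAP. Nnat (neuronatin) is an imprinted gene read only from the paternal copy, so that a paternal null allele removes nearly all of its message.

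Markers of the nucleus were checked in the library that the weights and labels put in the wild type group but whose total was 271324 counts, 5.78% of the median of the ARC libraries (replicate 35). Replicate 35 held no read of Pomc, Agrp or Npy, which at its depth allows up to 11.1 CPM (counts scaled to a common library total), and its levels of the paraventricular peptides Avp and Oxt were 203 and 313 CPM of its total. Avp did not exceed 3.85 CPM and Oxt did not exceed 2.69 CPM in the 6 libraries used. The paraventricular library with the same labelled weight, replicate 15, showed the opposite, with Pomc at 98.4 CPM and Avp at 0.163 CPM, while the other 2 wild type paraventricular libraries held Avp at 267 and 426 CPM. Replicate 35 was left out, and paraventricular values are given with and without replicate 15. Pomc, Cartpt and Npy were read in all 6 libraries used.

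Nnat itself was 251 and 333 CPM in the wild type libraries and 1.22, 4.29, 4.97 and 2.60 CPM in the obese libraries, scaled by trimmed mean of M-values (TMM) as are all CPM below unless said otherwise. The log2 fold change was -6.52 ± 0.35 (SE, n = 4 and 2), with an adjusted p of 9.48e-12 in edgeR. The level of the targeted gene matched the label in all 6 libraries. Nnat lies at chr2:157560078-157562522 on the plus strand of GRCm38, within Blcap (chr2:157556362-157571274, minus strand), an imprinted neighbour. Blcap was 69.5 and 62.1 CPM in wild type and 49.4 to 63.4 CPM in obese libraries, and the groups overlapped (log2 fold change -0.17 ± 0.24). Apart from Nnat, 24 tested genes, Blcap included, had their midpoint within 1 Mb of it. Of these, 2 were above and 0 below the wild type in all obese libraries. The smallest unadjusted p was 0.148 (edgeR, Ndrg3, of the NDRG family).

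The test was run across 14658 genes with 2 wild type libraries. At an adjusted p under 0.25, 1 gene was higher (0.00682% of those tested) and 2 were lower (0.0136%) in obese mice. The higher gene was Gfap and the lower genes were Nnat and Kif21a. At an unadjusted p under 0.05, 198 genes were higher (1.35%) and 182 were lower (1.24%). In 899 genes (6.13%) all 4 obese libraries were above both wild type libraries, and in 978 (6.67%) all were below. The median log2 fold change over all tested genes was 0.02. The exact two-sided permutation test of 1 gene over the 15 arrangements of 4 against 2 cannot give less than 0.133, which is the value for every gene named below whose groups do not overlap. Full separation in a given direction is a single outcome of these 15, so shares of this size can also arise without a group difference. Results are therefore given as values, order and counts, and the share of a list without overlap is to be read against 6.13% above and 6.67% below over all tested genes.

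The genes whose groups did not overlap differed somewhat in abundance. The 899 higher genes had a median level of 14.9 CPM and the 978 lower genes one of 9.46 CPM, against 10.9 CPM over all tested genes. In 605 of the 899 (67.3%) and 603 of the 978 (61.7%) the median of 4 non-obese Nnat+/-p libraries (27.4 to 34.3 g, same diet, sex and age) lay between the obese and wild type means, against 33.9% of all tested genes. Replicates 39 and 40 of the non-obese libraries carry the same labelled weight, 34.3 g, so these 4 libraries may not be 4 mice. The wild type and obese means that chose these genes also bound that interval, so the share is a description.

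The first question of an ARC comparison is what its own neurons express. All 4 feeding peptides had a positive log2 fold change in obese mice, and 3 of the 4 did not overlap with wild type. Pomc, the precursor of the melanocortin peptides that restrain feeding, was 29.3 and 26.6 CPM in wild type and 103, 124, 65.5 and 95.3 CPM in obese libraries. Every obese library thus held over 2-fold the level of either wild type library, with a log2 fold change of 1.80 ± 0.63 and an unadjusted p of 0.00863 (adjusted p of 1, edgeR). Cartpt, which encodes the CART peptide of many of the same neurons, was 32.5 and 33.9 CPM in wild type and 43.9, 42.5, 71.9 and 47.4 CPM in obese libraries. The difference in Cartpt was smaller, at 0.63 ± 0.31 on the log2 scale. Replicate 15, the wild type library labelled paraventricular that held Pomc, is outside this comparison. On library totals it held Pomc at 98.4 CPM and Cartpt at 47.2 CPM. Both lie within the obese ranges on that scale, 62.3 to 125 CPM and 42.6 to 68.4 CPM.

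The orexigenic pair of the AgRP neurons was read at low levels. Npy, which drives feeding, was 6.61 and 6.45 CPM in wild type and 14.4, 8.20, 21.8 and 14.7 CPM in obese libraries, a log2 fold change of 1.17 ± 0.55. Agrp, the melanocortin receptor antagonist made by the same cells, was 1.15 and 2.69 CPM in wild type and 6.23, 0.932, 4.49 and 5.85 CPM in obese libraries. The groups overlapped in Agrp (log2 fold change 1.18 ± 1.35), because replicate 37 was the lowest of the 6. In such bulk samples more cells of a type and more RNA per cell cannot be told apart. In the non-obese Nnat+/-p libraries Pomc ran from 2.16 to 79.4 CPM, which spans the wild type values, and Npy from 3.74 to 9.90 CPM. On library totals replicate 15 held Npy at 13.4 CPM, within the obese range of 8.22 to 20.7 CPM on that scale.

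**Figure D1:**
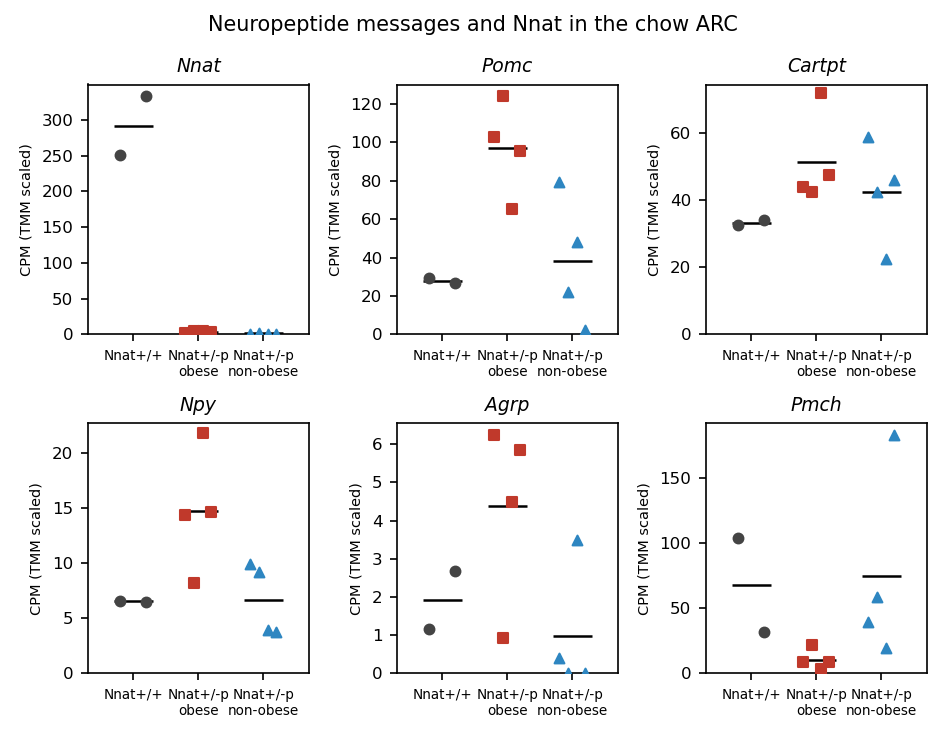
TMM-scaled CPM (y axis, linear from 0) of Nnat, the 4 ARC feeding peptides and Pmch in single libraries of chow-fed wild type (n = 2), obese Nnat+/-p (n = 4) and non-obese Nnat+/-p libraries (n = 4), with the mean of each group as a bar. Pomc in the obese libraries sits at 65.5 CPM or more, above both wild type libraries, while the non-obese libraries spread from 2.16 to 79.4 CPM, and Nnat is near 0 in every Nnat+/-p library.

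Among 26 tested genes of other ARC neurons, 16 had a positive and 10 a negative log2 fold change (median 0.23). In 5 of them (19.2%) all obese libraries were above wild type and in 1 (3.85%) all were below. Crabp1, a retinoic acid binding protein of a subset of ARC neurons, was 0.574 and 4.03 CPM in wild type and 8.20, 8.76, 20.1 and 8.01 CPM in obese libraries (2.26 ± 0.88). Tbx3, a transcription factor that maintains ARC neuron identity, was 6.32 and 13.7 CPM against 19.1, 17.1, 23.2 and 20.4 CPM (0.99 ± 0.48). Sst, the somatostatin precursor, was 44.8 and 53.2 CPM against 87.5, 62.2, 59.1 and 60.4 CPM. These genes stood above wild type in each obese library, by a margin that was small in Sst. The wild type replicate 15, outside this comparison, held Crabp1 at 17.9 CPM, within the obese range. That value was scaled with the paraventricular libraries, which is another scale. Tbx3 and Sst are not given for replicate 15 here.

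Among 37 tested receptors for appetite signals and hormones, 24 were positive and 13 negative (median 0.24), with 5 above (13.5%) and 1 below (2.7%) wild type without overlap. Ghr, the growth hormone receptor, was 9.77 and 17.5 CPM in wild type and 36.5, 23.1, 24.6 and 37.7 CPM in obese libraries (1.16 ± 0.36, unadjusted p of 0.00374). Npy2r, the presynaptic receptor for NPY and PYY, was 8.62 and 10.2 CPM against 27.2, 11.2, 22.5 and 36.8 CPM (1.37 ± 0.44). Both stood above wild type in every obese library, although replicate 37 did so only narrowly for Npy2r. Esr1, the estrogen receptor alpha, was 12.1 and 16.1 CPM against 19.6 to 30.3 CPM, and Npy5r, a postsynaptic NPY receptor, 2.01 and 2.15 CPM against 3.80 to 10.6 CPM. Ntsr2, a neurotensin receptor of astrocytes, was the receptor below wild type, at 49.4 and 63.7 CPM against 34.2 to 46.6 CPM. Lepr, the leptin receptor, was 7.75 and 2.96 CPM in wild type and 40.6, 3.73, 6.38 and 2.60 CPM in obese libraries, so its positive log2 fold change of 1.33 came from replicate 36 and was -0.34 without it. Hcrtr2, an orexin receptor, was negative (-0.84 ± 0.41) and overlapped. Replicate 15, scaled with the paraventricular libraries, held Ghr at 26.3, Npy2r at 12 and Esr1 at 36.6 CPM. None of these was below the obese range. It held Npy5r at 2.21 CPM, below the obese range, and Ntsr2 at 50.3 CPM, above the obese range.

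Genes that act behind these receptors had medians near that of all genes. Of 30 tested genes of leptin and insulin signalling, 18 were positive (median 0.06), 4 were above wild type without overlap (13.3%), 0 were below and none passed an unadjusted p of 0.05. The 4 included Irs4, an adaptor of the insulin receptor (90.5 and 135 CPM against 142 to 155 CPM), and Stat3, the transcription factor downstream of the leptin receptor (40.5 and 43.0 CPM against 50.7 to 61.7 CPM). Of 20 genes for prohormone processing and granins, 14 were positive (median 0.08) and 3 (15%) stood on each side of wild type. Vgf, a secreted granin, was 59.7 and 54.8 CPM against 63.0 to 96.5 CPM, and Furin, a protease that cuts prohormones, 8.04 and 8.07 CPM against 11.7 to 16.0 CPM.

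A few genes were read because the study names them in its account of the paraventricular nucleus. The genes it names for the ARC of obese mice, Npy and Tbx3, are given above. Ntsr1, the main neurotensin receptor of neurons, was 10.3 and 3.76 CPM in wild type and 2.38 to 11.6 CPM in obese libraries. Nrgn (neurogranin), a postsynaptic calmodulin-binding protein, was 70.4 and 160 CPM against 74.7 to 165 CPM. Both overlapped, with log2 fold changes of -0.12 ± 0.73 and -0.04 ± 0.45. Ucp2, a mitochondrial carrier of the uncoupling protein family, was 41.9 and 38.4 CPM against 42.0 to 56.5 CPM, a margin of under 1 CPM (0.27 ± 0.26).

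Imprinted genes were read beside Nnat. Of 43 tested, 29 were positive and 14 negative (median 0.13), 3 were above wild type without overlap (6.98%) and 2, Nnat and Nap1l5, below (4.65%). These shares are near those of all tested genes. The 3 above were Plagl1, a zinc finger regulator of other imprinted genes (56.3 and 34.4 CPM against 61.9 to 87.5 CPM), Magel2, a Prader-Willi region gene expressed in the hypothalamus (22.1 and 23.4 CPM against 30.0 to 42.5 CPM), and Sgce, a sarcoglycan (14.6 and 9.14 CPM against 16.6 to 33.8 CPM). Each of the 3 had an unadjusted p under 0.05 and an adjusted p of 1 (edgeR). The wild type replicate 15, scaled with the paraventricular libraries, held Plagl1 at 74 and Magel2 at 44 CPM. Neither was below the obese range, while its Sgce, at 9.21 CPM, was.

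Astrocyte genes held the only higher gene that passed the test. Gfap, the intermediate filament of reactive astrocytes, was 34.8 and 30.9 CPM in wild type and 183, 217, 323 and 218 CPM in obese libraries. Mean Gfap rose 7.17-fold, from 32.8 ± 2.71 (SD, n = 2) to 235 ± 60.8 CPM (SD, n = 4), a log2 fold change of 2.84 ± 0.46 (adjusted p of 0.0149, edgeR). With all male ARC groups in 1 fit its adjusted p was 0.394, which is not a call. Each obese library exceeded the higher wild type library by more than 5-fold, and Gfap had the smallest p of all higher genes. In the 4 non-obese Nnat+/-p libraries Gfap was 49.1, 177, 167 and 40.8 CPM, all between the wild type and the obese values. Obese minus non-obese was 1.14 ± 0.32 on the log2 scale (unadjusted p of 0.00163, adjusted p of 0.999).

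The second and the third of the higher genes, by p and among those read at 10 CPM or more, were also on the reactive astrocyte list. Which cells made them cannot be read from bulk samples. Serpina3n, a secreted protease inhibitor, was 13.5 and 13.7 CPM in wild type and 52.6, 39.5, 63.4 and 39.6 CPM in obese libraries (1.84 ± 0.44, adjusted p of 1). C4b, a complement component, was 7.75 and 4.57 CPM against 29.5, 35.4, 43.5 and 36.2 CPM (2.55 ± 0.67, adjusted p of 1). C4b shares most of its sequence with C4a, and how reads matching both were assigned is not given in the sources used here, so its level is uncertain. Cd44, a hyaluronan receptor, was 2.30 and 3.76 CPM against 6.23, 8.20, 17.5 and 6.71 CPM.

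The reactive astrocyte list as a whole was split. Of 21 tested genes, 10 were positive and 11 negative, with a median of -0.06, but 6 stood above wild type without overlap (28.6%) and 0 below, and 5 had an unadjusted p under 0.05. The 6 were Gfap, Serpina3n, C4b, Cd44, Stat3 and Aspg, an asparaginase that was at 0 counts in both wild type libraries (which allows up to 0.807 CPM) and at 0.608 to 3.78 CPM in obese libraries. Vim, the filament that astrocytes make beside GFAP, was 15.2 and 18.0 CPM against 11.1, 10.8, 19.4 and 16.0 CPM, and overlapped. The summed level of all 30 listed genes was 179 and 217 CPM in wild type and 412 to 599 CPM in obese libraries, and Gfap alone was 183 to 323 CPM of the latter.

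The 25 genes of resting astrocytes were mostly negative. Of these, 21 were negative and 4 positive (median -0.23), and 8 stood below wild type without overlap (32%) against 1 above. Slc1a2, the main glutamate transporter, was 1075 and 1298 CPM in wild type and 1021, 1043, 715 and 914 CPM in obese libraries (-0.36 ± 0.18). Ndrg2 was 456 and 531 CPM against 347 to 419 CPM, and Agt, the angiotensin precursor made by astrocytes, 161 and 129 CPM against 76.6 to 125 CPM. Fabp7, a fatty acid binding protein of glial progenitors, was 39.3 and 35.2 CPM against 17.5 to 28.4 CPM, and Slc6a11, a GABA transporter, 341 and 317 CPM against 180 to 292 CPM. Each stood below both wild type libraries by a small margin in its highest obese library, and no adjusted p was under 0.25. Aqp4, the water channel of astrocyte endfeet, was 67.8 and 87.4 CPM against 84.1, 74.5, 150 and 113 CPM and overlapped. The 3 chow groups and 8 of these genes are drawn in the plot of astrocyte messages.

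**Figure D2:**
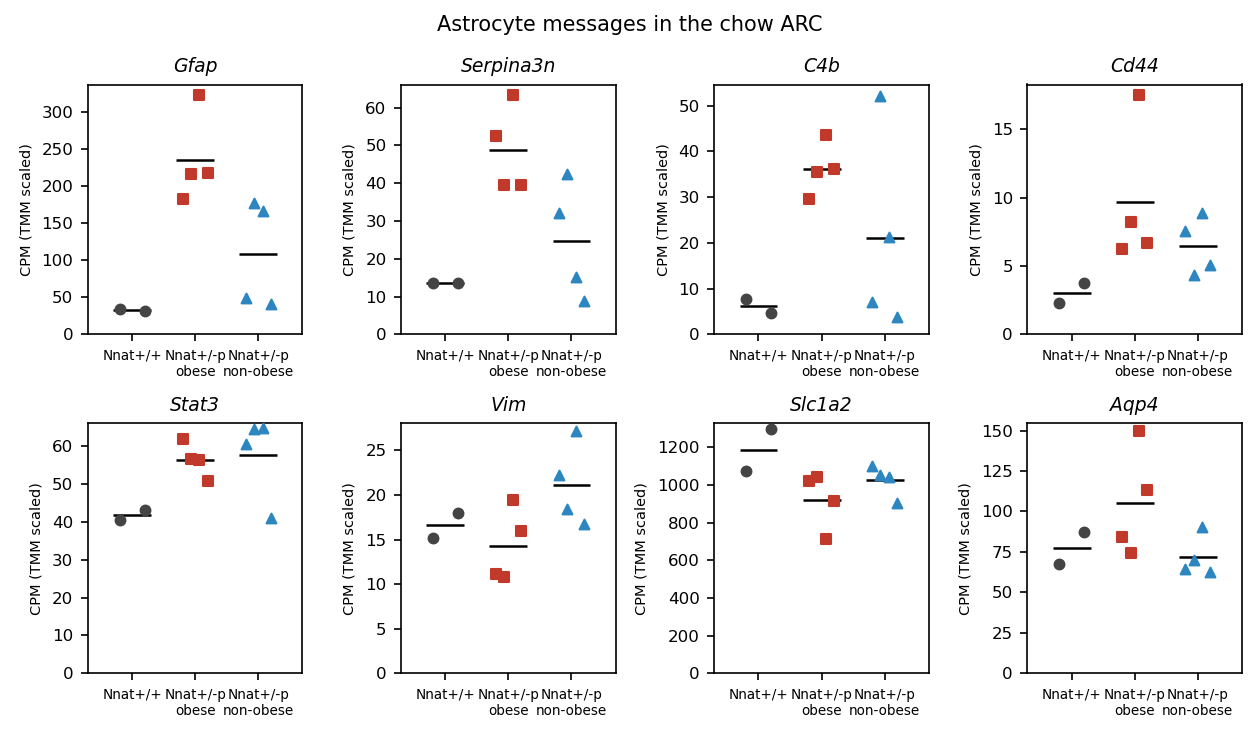
TMM-scaled CPM (y axis, linear from 0) of 5 reactive astrocyte genes, Vim and 2 resting astrocyte genes in single libraries of chow-fed wild type (n = 2), obese Nnat+/-p (n = 4) and non-obese Nnat+/-p libraries (n = 4), with group means as bars. Gfap runs from 183 to 323 CPM in the obese libraries against 30.9 and 34.8 CPM in wild type, whereas Vim overlaps and Slc1a2 is lower in all 4 obese libraries.

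Promoters are shown for 4 of the genes described, so that the start regions behind Gfap, Serpina3n, Pomc and Pmch can be read beside their levels. C4b had no promoter entry. They are RefSeq windows of GRCm38.p6 from 250 bases before to 50 after a start, printed 5′ to 3′ on the gene's strand. Capitals mark TTCNNNGAA, the letters of a STAT site, and TATAAA, the letters of a TATA box, each searched on both strands.
Gfap (chr11:102897151-102897450, minus strand): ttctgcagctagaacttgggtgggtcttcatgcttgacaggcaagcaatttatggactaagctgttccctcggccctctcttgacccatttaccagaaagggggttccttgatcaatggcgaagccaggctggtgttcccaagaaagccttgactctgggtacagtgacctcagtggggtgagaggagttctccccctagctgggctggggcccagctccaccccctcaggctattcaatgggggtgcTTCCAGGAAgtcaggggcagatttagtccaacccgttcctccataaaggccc
Serpina3n (chr12:104406458-104406757, plus strand): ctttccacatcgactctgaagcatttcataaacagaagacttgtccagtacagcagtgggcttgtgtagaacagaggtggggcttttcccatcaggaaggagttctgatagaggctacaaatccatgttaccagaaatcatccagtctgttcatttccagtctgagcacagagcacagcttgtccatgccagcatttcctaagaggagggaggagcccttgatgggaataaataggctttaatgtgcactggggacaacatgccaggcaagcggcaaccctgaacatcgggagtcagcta
Pomc (chr12:3954695-3954994, plus strand): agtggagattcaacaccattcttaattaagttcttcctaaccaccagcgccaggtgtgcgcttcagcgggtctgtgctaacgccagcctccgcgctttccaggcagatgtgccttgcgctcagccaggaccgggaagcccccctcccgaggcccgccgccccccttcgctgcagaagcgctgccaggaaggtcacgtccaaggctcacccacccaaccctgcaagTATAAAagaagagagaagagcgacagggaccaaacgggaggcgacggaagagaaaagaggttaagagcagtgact
Pmch (chr10:88090822-88091121, plus strand): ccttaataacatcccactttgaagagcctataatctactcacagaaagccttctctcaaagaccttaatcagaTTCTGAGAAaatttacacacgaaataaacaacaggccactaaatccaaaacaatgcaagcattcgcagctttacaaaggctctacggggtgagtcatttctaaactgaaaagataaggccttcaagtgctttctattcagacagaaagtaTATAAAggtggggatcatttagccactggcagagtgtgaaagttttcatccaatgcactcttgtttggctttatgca
TTCNNNGAA was in the Gfap window, where it began 2 bases before the start and ran across it. In the Pmch window it began 177 bases before the start, and 8.3% of all 32851 windows hold it. TATAAA began 25 bases before the start of Pomc and 27 before that of Pmch, and 13.6% of all windows hold it. The Serpina3n window held neither. A match is a description of letters, and Gfap and Pmch, which both hold TTCNNNGAA, lay at opposite ends of the order.

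Other cell types of the capture were compared by their markers. Of 18 tested microglia markers 14 were positive (median 0.13), with 1 above and 1 below wild type without overlap (5.56% each). The one above was Ctss, a lysosomal protease of microglia (41.6 and 55.1 CPM against 70.1 to 78.7 CPM). Of 22 tested vascular and meningeal markers 19 were negative (median -0.34), and 2 stood below wild type without overlap (9.09%) and 0 above. Their summed level was 296 and 298 CPM in wild type and 218 to 277 CPM in obese libraries. Cldn5, a tight junction protein of brain endothelium, was 9.48 and 8.33 CPM against 0.866 to 5.96 CPM, and Rgs5, a pericyte gene, 62.0 and 70.4 CPM against 42.7 to 53.3 CPM. Of 21 tested oligodendrocyte and myelin genes 15 were negative (median -0.18), with 1 above (4.76%) and 2 below (9.52%) wild type without overlap, but Mbp, a myelin protein, overlapped at 444 and 352 CPM against 210 to 373 CPM, as did Mobp. Of 16 tested tanycyte and ependymal markers 9 were positive and 7 negative (median 0.01). In 1 of these (6.25%) all obese libraries were above wild type and in 3 (18.8%) all were below, namely Gpr50, Rspo3 and Cd59a. Gpr50 in tanycytes was 12.6 and 6.18 CPM against 2.13 to 3.90 CPM, and Rspo3, a secreted Wnt agonist, 5.46 and 4.57 CPM against 0.433 to 2.84 CPM. Col23a1, the one above, was 1.15 and 2.96 CPM against 3.31 to 9.09 CPM. All 17 pan-neuronal genes overlapped between groups (median 0.05). Interferon response genes had a median of 0.33 over 12 tested, with 3 above (25%) and 1 below (8.33%) wild type, and hypothalamic inflammation genes one of -0.09 over 14.

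The edge of the captured area was read from genes of neighbouring nuclei. Pmch, the precursor of melanin-concentrating hormone made in the lateral hypothalamus, was 104 and 31.7 CPM in wild type and 8.51, 21.4, 3.55 and 8.88 CPM in obese libraries. All 4 obese libraries were below both wild type libraries, by -2.66 ± 0.59 on the log2 scale (unadjusted p of 0.000145, adjusted p of 0.53), and by -1.57 without replicate 33. On library totals the wild type replicate 15, outside this comparison, held Pmch at 21 CPM, within the obese range of 3.37 to 21.5 CPM. Pmch in the non-obese Nnat+/-p libraries was 39.4, 59.0, 19.2 and 183 CPM, and obese minus non-obese was -2.82 (adjusted p of 0.245), the only call of that contrast. Of the 15 tested genes of neighbouring nuclei 11 were negative (median -0.64) and 3 stood below wild type without overlap (20%), but their summed levels overlapped, at 469 and 513 CPM in wild type and 332 to 528 CPM in obese libraries. None of the 18 listed genes was at 0 in all 6 libraries, and Avp, Oxt and Sim1 stayed at 4.11 CPM or less. The part that the captured area plays in Pmch, Pomc or the vascular genes was not tested.

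Immediate early genes, which neurons switch on when they fire, were positive in 17 of 20 tested (median 0.61), against 52.4% of all tested genes. In 4 of the 20 (20%) all obese libraries were above wild type and in 0 below. Npas4 was 1.15 and 0.269 CPM in wild type and 5.77, 4.66, 1.66 and 3.46 CPM in obese libraries. Fos was 4.88 and 2.96 CPM against 15.5, 5.03, 11.1 and 8.01 CPM, and Egr1 16.9 and 13.2 CPM against 26.3, 21.6, 29.6 and 42.6 CPM. The 3 had unadjusted p of 0.0352, 0.0487 and 0.0478 and adjusted p of 1 (edgeR), and in Fos the lowest obese value barely exceeded the higher wild type value. The summed level was 115 and 161 CPM in wild type and 178 to 230 CPM in obese libraries. In the non-obese Nnat+/-p libraries Npas4 was 7.52, 6.76, 1.88 and 2.59 CPM. Fos ran from 2.69 to 7.37 CPM there and Egr1 from 6.48 to 41.3 CPM. The list median of non-obese minus wild type was 0.39. The time from removal from the cage to freezing is not given in the sources used here, and its part was not tested.

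**Figure D3:**
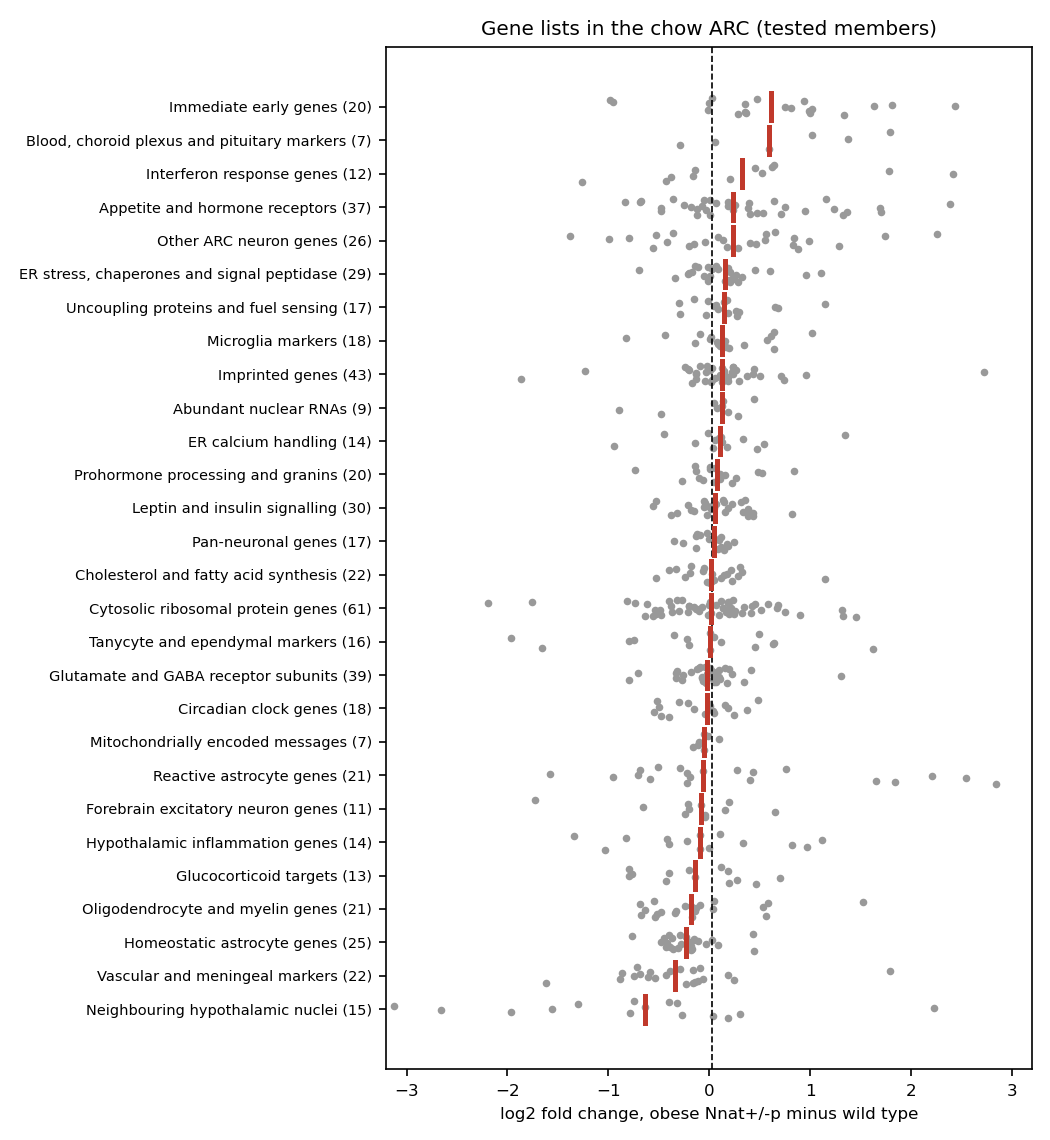
Log2 fold change of obese Nnat+/-p against wild type (x axis) for every tested member (grey points) of 28 gene lists (rows, number tested in brackets) with the list median (red bar), and the median of all tested genes as a dashed line at 0.02. The lists are those with at least 7 tested members, which leaves out the 2 lists of feeding peptides. Immediate early genes have the highest median of those drawn (0.61) and genes of neighbouring nuclei the lowest (-0.64), the reactive astrocyte list has a median of -0.06 with a few members far to the right, and 6 members lie outside the axis.

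The remaining lists had medians nearer to that of all genes, with 1 exception. Medians were 0.16 over 29 genes of endoplasmic reticulum stress and signal peptidase, 0.11 over 14 of endoplasmic reticulum calcium handling, 0.14 over 17 of uncoupling and fuel sensing and 0.02 over 22 of cholesterol and fatty acid synthesis. They were -0.02 over 39 glutamate and GABA receptor subunits, -0.02 over 18 clock genes, -0.14 over 13 glucocorticoid targets, -0.08 over 11 forebrain excitatory neuron genes and 0.01 over 61 ribosomal protein genes. Mitochondrial messages had a median of -0.06 over 7 and abundant nuclear RNAs one of 0.12 over 9. The exception was blood, choroid plexus and pituitary markers, with a median of 0.59 over 7, a list that also holds Pomc because pituitary cells make it. Its defining pituitary hormones stayed low, with Gh, Prl, Cga and Tshb at 2.15 CPM or less in all 6 libraries.

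Of the 15 higher genes with the smallest p among those read at 10 CPM or more, the ones not yet named span signalling and nuclear functions. Uhrf2, a protein that binds modified cytosine, was 15.8 and 13.7 CPM in wild type and 33.7, 26.5, 42.8 and 26.0 CPM in obese libraries (1.13 ± 0.34). Hltf, a DNA translocase, was 10.6 and 21.5 CPM against 31.7, 26.3, 25.8 and 65.2 CPM (1.21 ± 0.41). Wnt5a, a secreted Wnt ligand, was 8.90 and 10.2 CPM against 25.7, 20.9, 18.4 and 20.6 CPM (1.16 ± 0.41). The other genes were Carf (1.31 ± 0.44), Heatr1 (1.16 ± 0.40), Tbc1d15 (0.83 ± 0.28), Zfp207 (0.72 ± 0.25), the chaperone cofactor Dnajb4 (0.72 ± 0.24) and Marcksl1 (0.67 ± 0.23). All had an adjusted p of 1.

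The lower genes chosen in the same way included a synaptic scaffold and a histone deacetylase. Shank1, a scaffold of excitatory synapses, was 245 and 311 CPM in wild type and 226, 201, 119 and 150 CPM in obese libraries (-0.67 ± 0.23). Hdac5, a histone deacetylase, was 86.2 and 75.8 CPM against 64.9, 47.9, 53.4 and 40.1 CPM (-0.65 ± 0.22). Tril, a Toll-like receptor accessory protein of astrocytes, was 59.2 and 54.6 CPM against 39.2, 33.9, 24.1 and 35.9 CPM (-0.77 ± 0.24), and Foxk1, a forkhead factor, 29.0 and 30.9 CPM against 17.8, 17.1, 9.70 and 12.6 CPM (-1.06 ± 0.34). Pttg1 (securin) was 13.5 and 8.33 CPM against 1.30 to 2.89 CPM (-2.51 ± 0.65). The others were Mrps21 (-1.54 ± 0.48), Serpine2 (-0.60 ± 0.21), Mir99ahg (-1.67 ± 0.60), Igbp1 (-1.11 ± 0.40), Tnrc6c (-0.76 ± 0.27), Tmem184c (-0.75 ± 0.27) and Brsk1 (-0.65 ± 0.24), beside Nnat and Pmch. Except for Nnat, none had an adjusted p under 0.25.

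Kif21a, a kinesin, passed the test (log2 fold change -2.41, adjusted p of 0.019) through 1 library. It was 264 CPM in replicate 33 and 2671 CPM in replicate 34, against 292, 337, 265 and 212 CPM in the obese libraries. Without replicate 34 the log2 fold change was 0.077.

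The same genes were read in the ARC of males fed a high-fat diet (HFD), where 6 wild type mice weighed 37.4 to 43.9 g and 4 Nnat+/-p mice 38.2 to 43.1 g. Nnat was 278 to 480 CPM in wild type and 1.05 to 3.95 CPM in Nnat+/-p libraries on HFD (-7.45 ± 0.35). Gfap on HFD had a lowest, median and highest value of 47.1, 99.2 and 211 CPM in wild type and of 64.5, 150 and 216 CPM in Nnat+/-p libraries (0.34 ± 0.38), and the groups overlapped. On the scale of the same fit, the chow wild type libraries were 28.8 and 32.2 CPM and the obese chow libraries 171 to 298 CPM. Serpina3n on HFD was 60.8, 73.7 and 152 CPM in wild type and 48.5, 95.3 and 137 CPM in Nnat+/-p libraries, a difference of 0.06 ± 0.29. Pomc on HFD was 26.4, 104 and 349 CPM in wild type and 103, 141 and 201 CPM in Nnat+/-p libraries (0.25 ± 0.49).

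Of the 15 higher genes chosen on chow, 9 were positive and 6 negative between genotypes on HFD, with a median of 0.06 and none at an unadjusted p under 0.05. Of the 13 lower genes reported apart from Nnat, 3 were negative and 10 positive (median 0.13). Foxk1 and Mir99ahg had an unadjusted p under 0.05 on HFD, Foxk1 in the direction opposite to chow (0.54 ± 0.24). Over all 14602 genes tested in both, 48.4% were positive on HFD. The HFD libraries are other mice, with their own wild type group, and none of them entered the choice of genes.

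**Figure D4:**
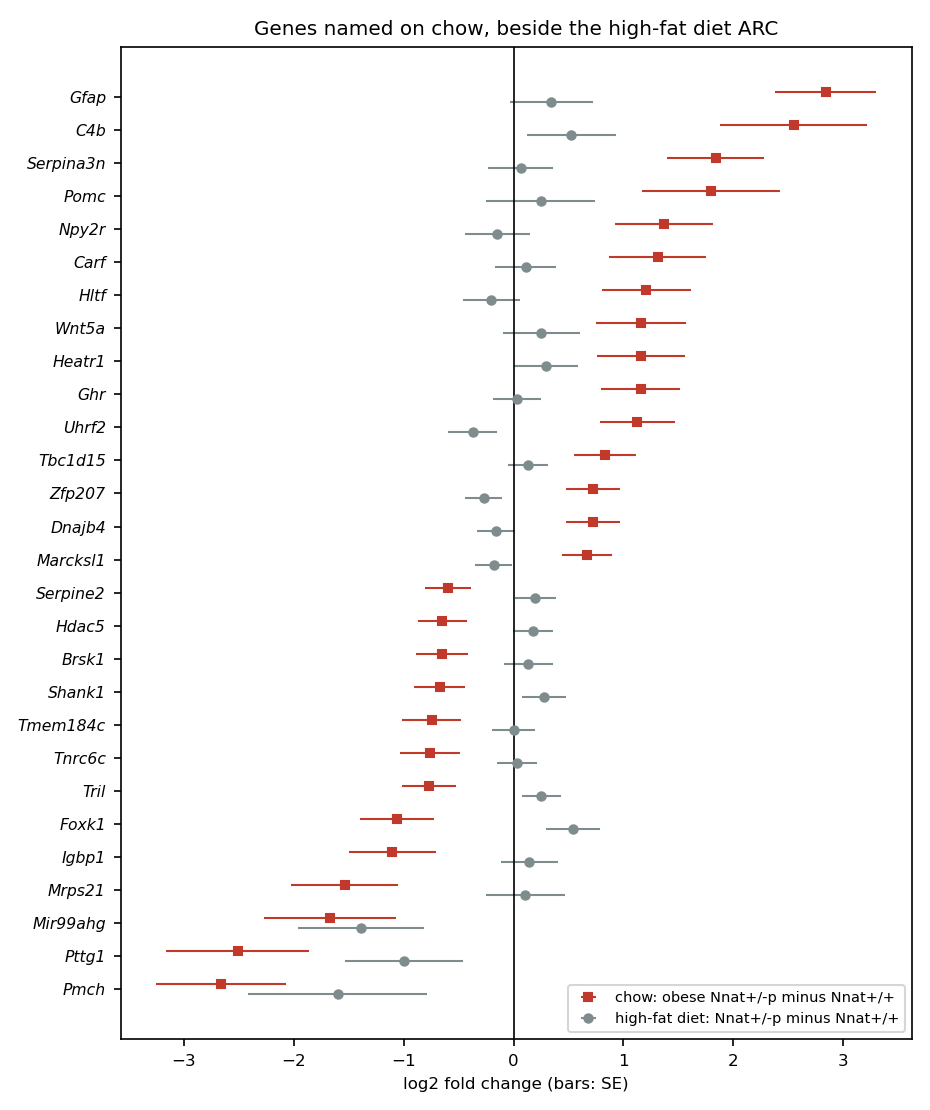
Log2 fold change (x axis, bars are SE) of the 28 genes so named and reported, other than Nnat, in the ARC, for obese Nnat+/-p against wild type on chow (red squares, n = 4 and 2) and Nnat+/-p against wild type on HFD (grey circles, n = 4 and 6). Genes were chosen on the chow values, so their distance from 0 on chow is a description. Most of the HFD values lie near 0, but those of Pmch, Mir99ahg and Pttg1 lie below it.

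The difference between the genotype effect on chow and that on HFD was tested over 15753 genes. At an adjusted p under 0.25, 2 genes were called (0.0127%), and 636 had an unadjusted p under 0.05 (4.04%). Gfap differed by 2.5 ± 0.69 on the log2 scale, Uhrf2 by 1.50 ± 0.39, Clk1, a kinase of splicing factors, by 1.60 ± 0.45 and Zfp207 by 1.00 ± 0.28, each with an adjusted p of 1. On the lower side Foxk1 differed by -1.60 ± 0.41, Tril by -1.02 ± 0.29 and Hebp1, a heme-binding protein, by -1.77 ± 0.52. In Clk1 and Hebp1 the HFD part was the larger. Clk1 was 0.75 ± 0.39 on chow and -0.85 ± 0.26 on HFD. Hebp1 was -0.63 ± 0.45 on chow, where the groups overlapped, and 1.15 ± 0.31 on HFD. The chow contrast that chose Gfap, Uhrf2, Zfp207, Foxk1 and Tril is part of this difference, so their values are not independent of that choice. The 2 called genes were Kif21a and Gm30806, and both rested on replicate 34 on chow and a single Nnat+/-p library on HFD.

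Gfap was also read in the paraventricular nucleus (PVN) of males on chow. It was 49.5, 80.9 and 41.8 CPM in the wild type libraries, the last of which is replicate 15, and 124, 191, 99.4 and 122 CPM in the obese Nnat+/-p libraries. All 4 obese libraries were above wild type, by 1.23 ± 0.31 on the log2 scale (unadjusted p of 0.000578, adjusted p of 0.607) and by 1.06 ± 0.34 without replicate 15. The labelled weights pair these libraries with those of the ARC, so they are other tissue of what may be the same mice. C4b was 12.1, 12.1 and 1.29 CPM against 19.5, 30.2, 36.4 and 22.2 CPM in the PVN (1.68 ± 0.56, and 1.17 ± 0.51 without replicate 15). Serpina3n was 17.0, 4.54 and 25.6 CPM against 4.77, 13.5, 4.04 and 7.12 CPM and overlapped. Its log2 fold change was -1.08 ± 0.58, and -0.51 ± 0.70 without replicate 15.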

How the data were processed

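Total RNA from laser-captured sections of 20 µm was made into low-input total RNA libraries. The authors deposited raw counts per gene as whole numbers, and per the labels used STAR 2.5.0a and GRCm38. The counting tool, annotation and strand setting are not given in the sources used here, so reads of overlapping genes on opposite strands (Nnat and Blcap) may not be separated. The 3 chow groups (wild type, obese and non-obese Nnat+/-p) entered a common model in edgeR 4.0.16 (under R 4.3.3), after filterByExpr with a minimum count of 10, TMM factors, the quasi-likelihood test and Benjamini-Hochberg adjustment over all tested genes. Adjusted p under 0.25 made a call. The SE of a log2 fold change was derived from its F statistic. Diets were compared by an interaction over all male ARC groups. Libraries under 25% of the median total (replicate 35) were left out. Of 53379 identifiers 53274 matched a GENCODE symbol, and 7 of 9 genes looked up had a RefSeq promoter entry.

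Members and the 30 gene lists were chosen with earlier results of these data known. Named genes were those the study names, the 15 with the smallest p in each direction without overlap and a mean of at least 10 CPM in the higher group, up to 5 of each list by p, the feeding peptides, and 5 in each direction for the diet difference; 1 gene so chosen is not reported here. Npy5r, Lepr, Aqp4, Vim, Ndrg3, Cd59a and Nap1l5 were named after their values were seen. Lists were described by counts and medians. Alternatives included DESeq2 1.42.0, limma 3.58.1 and leaving out libraries. The fit was tested on simulated data. Separate mice are not stated beyond sample names and weights, so p-values measure the spread between these samples. Precision is limited by the 2 wild type libraries and, for genes with few reads, by depth. Limits from a count of 0 cover counting error only.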

Additional observations from a re-analysis of the deposited data

Results flagged for a closer look

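Dixon's ratio over the 4 obese libraries exceeded the critical value for 9 of the single genes followed, and chance passes about 1 in 20 such groups. Replicate 41 stood apart in Cartpt (71.9 CPM against 42.5 to 47.4 CPM in the other obese libraries), Clk1 (37.1 CPM against 20.8 to 22.7 CPM), Crabp1 (20.1 CPM against 8.01 to 8.76 CPM), Aspg (3.78 CPM against 0.608 to 0.932 CPM) and, on the low side, Brsk1 (48.7 CPM against 61.9 to 63.9 CPM). Replicate 36 stood apart in Lepr (40.6 CPM against 2.60 to 6.38 CPM), Sst (87.5 CPM against 59.1 to 62.2 CPM) and Tmem184c (29.5 CPM against 22.5 to 23.7 CPM), and replicate 42 in Hltf (65.2 CPM against 25.8 to 31.7 CPM). In all of these but Lepr the groups did not overlap.

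The genotype effect on chow minus that on HFD passed the test for 2 genes, Kif21a with -5.28 and Gm30806 with -21.19 on the log2 scale (both with an adjusted p of 0.121, edgeR). Both values came from the same pair of libraries. Kif21a, on chromosome 15, was 2488 CPM in replicate 34 (wild type, chow) and 5990 CPM in replicate 51 (Nnat+/-p, HFD), against 146 to 316 CPM in the other 18 ARC libraries. Gm30806, on chromosome 14, was 68.1 and 160 CPM in these libraries and at 0 in the other 18, so that its fitted value depends on how 0 is treated and is no bound.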

How the results depend on the processing

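Of 74 single genes followed under 15 alternatives, 66 kept their sign in all of them. The 3 called genes became 25 (5 higher, 20 lower) without the filter (all genes whose counts sum to over 1), 7 (4 higher) with only the 2 groups compared and 1 (0 higher, 1 lower) with all male ARC groups in 1 fit, where Gfap had an adjusted p of 0.394 and 576 genes an unadjusted p under 0.05. DESeq2, limma with quality weights and all labelled libraries each called Gfap higher and 1 gene, Nnat, lower. Leaving out 1 library gave 2 to 5 calls, 1 to 2 higher and 1 to 3 lower, and the value of Kif21a, -2.41, ran from -3.27 to 0.077 (without replicate 34). Adjusted p of Gfap ran from 7.76e-24 to 0.394 over the alternatives. The diet difference called 2 genes, but 0 with DESeq2 or at an adjusted p under 0.05, 1 with all labelled libraries, 20 (9 higher, 11 lower) without the filter, and 0 to 2 when 1 library was left out. No overlap held for 1371 to 2843 higher and 1391 to 3461 lower genes when 1 library was left out, for 1628 lower genes without the filter and for 182 with all labelled libraries, which add replicate 35.

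List medians moved as follows. Reactive astrocyte genes had 0.64 with all labelled libraries, 0.10 with replicates 39 and 40 summed, -0.27 with limma and -0.088 to 0.38 without 1 library. Resting astrocyte genes had 0.028 with all labelled libraries. Immediate early genes had 0.77 with only 2 groups and 0.41 to 0.96 without 1 library. Genes of neighbouring nuclei had -1.16 with limma and -1.16 to -0.32 without 1 library, and vascular markers -0.47 to -0.14. With all labelled libraries the log2 fold change turned sign for Dnajb4 (-0.33), Marcksl1 (-0.27), Ndrg2 (0.013), Nrgn (0.45), Ntsr1 (0.20) and Vim (0.15). Nrgn was 0.027 without TMM factors, 0.13 with limma and -0.51 to 0.69 without 1 library, Ntsr1 0.085 with limma and -0.66 to 0.78 without 1 library, and Lepr -0.34 to 2.18. Pmch, Pomc, C4b and Serpina3n, not called above, had adjusted p under 0.25 with only 2 groups (0.00563, 0.000667, 0.000667 and 0.00454) and without the filter, and Pmch also without replicate 34 (0.00758) or 37 (0.109). The causes were not tested. No paired analysis was made, because obese and wild type libraries differ in genotype and so come from different mice.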
